A study of Homo sapiens with 15 samples.

Results

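KIN, YIPF4, CFD, AGAP1, MYORG and IQGAP2 are 6 of the 13056 genes in a table of poly(A) site use, and they were picked because their values in shU2AF2 lay far from those in shControl. The measure is PDUI, an index of how often the distal poly(A) site is used, given as a fraction. At 1 all estimated transcripts end distally, and near 0 most end proximally. The 15 libraries are poly(A)-selected RNA sequencing of HEK293T, a human embryonic kidney line, with isolation of nuclear RNA named in the protocol of all groups. Each carried a short hairpin RNA (sh) against U2AF2, SF3B4, HDAC1, PABPN1, PCBP2 or ZNF384, with 2 libraries per knockdown, or a control hairpin, shControl, with 3 libraries whose genotype is labelled WT. All 6 genes had a value in all 15 libraries.

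Most human genes can end their transcripts at more than one place in the last exon, and the cleavage machinery recognises each place chiefly through a short signal word, AATAAA or a variant, a short way upstream of the cut. A proximal end gives a short 3' untranslated region and a distal end a long one, while the protein usually stays the same. U2AF2 is the large subunit of the U2AF dimer. It binds the polypyrimidine tract before the 3' splice site, helps to define the last exon, and is known to contact the cleavage machinery there.

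The 6 last exons differed widely in length. In GENCODE release 29 on GRCh38, YIPF4 had the longest, 11106 bases on chromosome 2 from 32305489 to 32316594, longer than or equal to those of 99.4% of the 12704 matched genes. AGAP1 followed with 7882 bases on chromosome 2 from 236123919 to 236131800, then MYORG with 6337 bases on chromosome 9 from 34366670 to 34373006, and KIN with 5181 bases on chromosome 10 from 7750962 to 7756142. IQGAP2, with 933 bases on chromosome 5 from 76707200 to 76708132, and CFD, with 539 bases on chromosome 19 from 863092 to 863630, lay below the median of 1372 bases. The 3' untranslated region made up 4132 of the 6337 bases in MYORG and 395 of the 539 in CFD, and nearly the whole last exon in KIN, YIPF4, AGAP1 and IQGAP2. No last exon overlapped an exon of another gene. The closest gene beyond the annotated end was ITIH2, 1442 bases past KIN on the opposite strand, and MED16 lay 4000 bases past CFD, also on the opposite strand.

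The signal words found in these exons are sequence matches, which alone do not show where a transcript ends. Those nearest to the annotated ends are shown because the distal end is what PDUI counts. The words AATAAA and ATTAAA were searched on the transcript's strand, and 78.6% and 52.2% of all matched last exons held them. YIPF4 had 26 words, AGAP1 had 10, KIN and MYORG had 5 each, CFD had 2 that overlap each other, and IQGAP2 had 1. A word lay within 50 bases of the annotated end in all of these genes but CFD, and in 74.6% of all matched genes. The sequences below run 5′ to 3′ on the transcript's strand, with the word in capitals and 12 bases on each side.
KIN distal word, chr10:7750970-7750999 minus strand: actttattttgaAATAAAgtctaagattta
YIPF4 distal word, chr2:32316562-32316591 plus strand: aacactaaaattAATAAAttgtgtaaattc
CFD last word, chr19:863421-863450 plus strand: tctctacaaataAATAAAaaattagctggg
AGAP1 distal word, chr2:236131758-236131787 plus strand: agacctctttctAATAAAgaaatgaaaata
MYORG distal word, chr9:34366674-34366703 minus strand: aagtaggtgctcAATAAAtggtagctatta
IQGAP2 single word, chr5:76708096-76708125 plus strand: tgttttatgtaaAATAAAtgttacttaatt

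The word closest to the start of the last exon is shown for 3 of the long exons, as the earliest place where these words occur. In KIN it began at base 87 of the last exon, in YIPF4 at base 373 and in AGAP1 at base 1073, which is 5095, 10734 and 6810 bases before the annotated ends. MYORG is shown for another reason: its 2 ATTAAA words, 1913 bases apart, sit in stretches identical at 29 of 30 bases. The table does not give the proximal sites behind PDUI, so none of these words is known to be one that the cells used.
KIN first word, chr10:7756039-7756068 minus strand: tgttaacaatacATTAAAatcttaaagcat
YIPF4 first word, chr2:32305849-32305878 plus strand: catattccagtgAATAAAatacaaaagcat
AGAP1 first word, chr2:236124979-236125008 plus strand: caaaatgggaaaAATAAAtaagaataactc
MYORG upstream ATTAAA word, chr9:34368918-34368947 minus strand: agctgtgagttcATTAAAcctctttttctt
MYORG downstream ATTAAA word, chr9:34367005-34367034 minus strand: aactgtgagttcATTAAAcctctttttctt

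**Figure D1:**
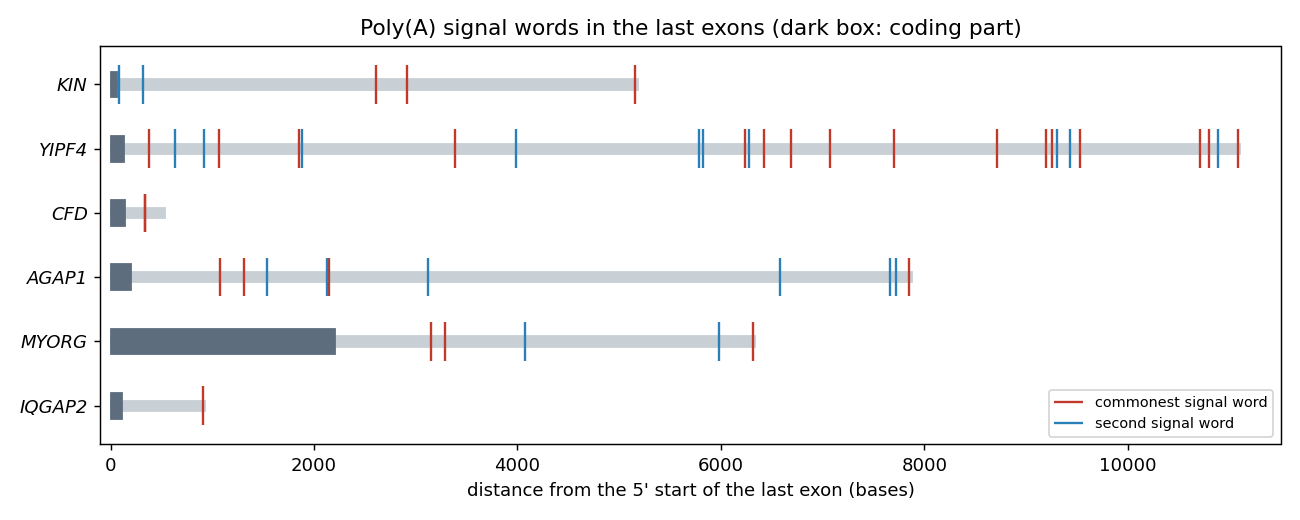
Last exons of the 6 genes drawn to scale from their 5' start, in bases, with the coding part as a dark box and the signal words as vertical lines (red for the commonest word, blue for the second). YIPF4 has 26 words over 11106 bases, while IQGAP2 has 1 word near its end and CFD has an overlapping pair.

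The contrast of shU2AF2 with shControl chose these genes, so its values are given as a description without a test. Over the 12362 genes compared, limma called 7.27% at an adjusted p under 0.05, 5.88% higher and 1.39% lower, and nothing is read from the members' own calls. KIN, a DNA- and RNA-binding zinc finger protein linked to DNA replication and repair, had PDUI 0.83 and 0.92 in shU2AF2, against 0.16, 0.17 and 0.22 in shControl. Its mean difference of 0.69 was number 5 from the top. YIPF4, a membrane protein of the Golgi and a member of the YIP1 family, had 0.70 and 0.89 in shU2AF2, against 0.14, 0.14 and 0.16 in shControl. CFD, the serine protease that cleaves factor B in the alternative complement pathway, had 0.77 and 1 in shU2AF2, against 0.19, 0.23 and 0.29 in shControl. In all 3 genes the control cells used mostly the proximal site and the shU2AF2 cells mostly the distal one. The differences of YIPF4 and CFD were both 0.65, between TMEM237 at 0.66 and PEX16 at 0.62.

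The other 3 genes lay on the opposite side. MYORG, a glycosidase-like protein of the endoplasmic reticulum that is linked to brain calcification, had 0.38 and 0.53 in shU2AF2, against 0.95, 0.95 and 1 in shControl. IQGAP2, a scaffold protein that binds Cdc42, Rac and calmodulin, had 0.47 and 0.57 in shU2AF2, against 0.87, 0.95 and 0.99 in shControl. AGAP1, a GTPase-activating protein for Arf that acts in endosomal traffic, had 0.36 and 0.44 in shU2AF2, against 0.74, 0.79 and 0.86 in shControl. Their mean differences were −0.51, −0.42 and −0.40. MYORG was level with LHX9 just above the lowest value, and IQGAP2 and AGAP1 were numbers 11 and 16 from the bottom. In MYORG, IQGAP2 and AGAP1 the shU2AF2 libraries lay between 0.36 and 0.57, while the control cells used mostly the distal site. The ranges of shU2AF2 and shControl did not overlap in any of the 6 genes, which follows from how they were picked.

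**Figure D2:**
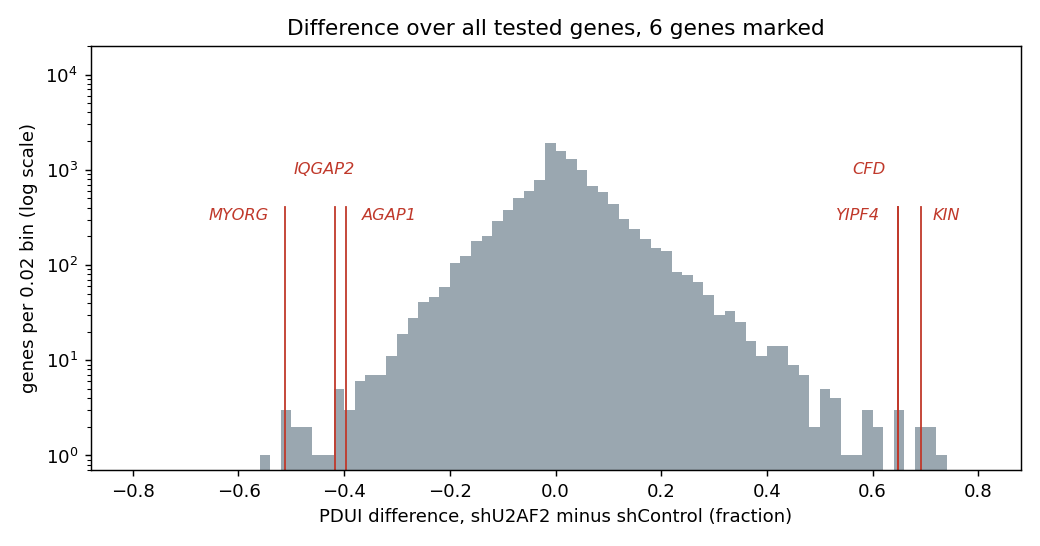
Histogram of the PDUI difference, shU2AF2 minus shControl, over the 12362 genes compared, in bins of 0.02 with a log axis for the number of genes, and red lines at the 6 genes. KIN, YIPF4 and CFD stand between 0.65 and 0.69 and AGAP1, IQGAP2 and MYORG between −0.51 and −0.40, all in the sparse tails.

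The same shU2AF2 values, which chose the genes, were also set beside the mean of the other 5 knockdowns. A difference on the same side is therefore no independent support, and it is given as a description. The difference was 0.58 for KIN, 0.54 for YIPF4 and 0.44 for CFD, and −0.34 for AGAP1, −0.39 for MYORG and −0.28 for IQGAP2. For KIN, YIPF4, CFD, AGAP1 and IQGAP2 no library of another knockdown reached the shU2AF2 range. In MYORG 1 of the 10 did, an shSF3B4 library at 0.51.

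**Figure D3:**
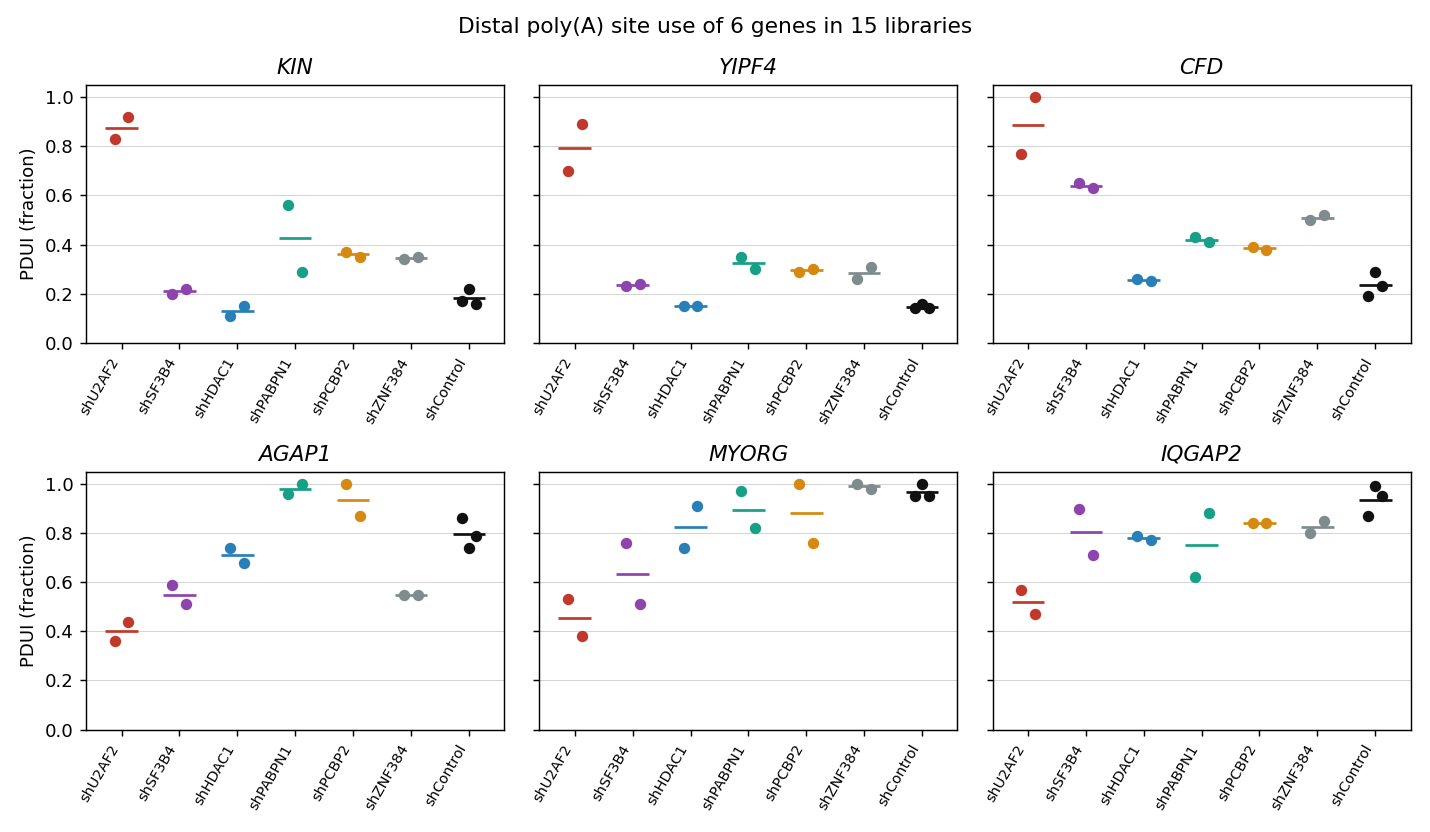
PDUI of the 6 genes in each of the 15 libraries (points) with the group mean (line), shU2AF2 at the left and shControl at the right of each panel. The shU2AF2 libraries are the highest in KIN, YIPF4 and CFD and the lowest in AGAP1 and IQGAP2, and in MYORG the shSF3B4 range reaches into that of shU2AF2.

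Whether the genes also differ among the other knockdowns was tested in the 10 libraries of shSF3B4, shHDAC1, shPABPN1, shPCBP2 and shZNF384. These lie outside the contrast that chose the genes, though earlier results of these data were known at that choice. Each knockdown was set against the mean of the other 4, with limma fitted over 11561 genes and p-values adjusted over all of them by Benjamini-Hochberg. Of the 30 tests on the 6 genes, 6 passed at an adjusted p under 0.05. Over all genes limma called 7.27% in shSF3B4, 2.83% in shHDAC1, 14% in shPABPN1, 0.182% in shPCBP2 and 0.311% in shZNF384. CFD, YIPF4 and AGAP1 each had 2 of the 6 calls, 1 higher and 1 lower. KIN, MYORG and IQGAP2 had none. Because each knockdown is set against the other 4, the differences of a gene cancel out in sum. A high group thus pulls the differences of the others down, and the calls of a gene are not separate results.

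CFD had the smallest adjusted p-values of the 30 tests in these 10 libraries. It had 0.63 and 0.65 in shSF3B4, where SF3B4 belongs to the part of the U2 particle that is loaded after U2AF at the branch point, and the mean of the other 4 knockdowns was 0.393. The difference was 0.25 (SE 0.013, adjusted p = 0.000542, limma). In shHDAC1, where HDAC1 is a histone deacetylase, CFD had 0.25 and 0.26 against a mean of 0.489 in the other 4, a difference of −0.23 (SE 0.013, adjusted p = 0.00236, limma). Both calls held with each library left out in turn. With all 15 libraries in the fit, the SE of CFD was 0.048 (adjusted p = 0.0125 in shSF3B4 and 0.0292 in shHDAC1, limma). In that fit AGAP1 had smaller adjusted p-values, 0.00632 in shPABPN1 and 0.00961 in shSF3B4 (limma). From high to low the CFD groups ran shU2AF2, shSF3B4, shZNF384 (0.50 and 0.52), shPABPN1 (0.41 and 0.43), shPCBP2 (0.38 and 0.39), shHDAC1 and shControl. Each neighbouring pair in that order was separate in its ranges except shHDAC1, which lay inside the range of shControl.

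AGAP1 spread to both sides of shControl, with 4 of the 10 libraries above all 3 controls and 5 below them. It had 0.96 and 1 in shPABPN1, where PABPN1 is the nuclear poly(A)-binding protein, and 0.69 in the mean of the other 4, a rise of 0.29 (SE 0.042, adjusted p = 0.0140, limma). Its value fell to 0.51 and 0.59 in shSF3B4, against a mean of 0.79 in the other 4, a difference of −0.24 (SE 0.042, adjusted p = 0.0250, limma). The shPCBP2 libraries stood at 0.87 and 1, with PCBP2 a KH-domain protein that binds poly(C), and those of shZNF384, a zinc finger protein, both at 0.55. Their differences from the other 4 were 0.24 and −0.24, and neither passed (adjusted p = 0.112 and 0.104, limma). By size among the 11561 genes, the AGAP1 difference ranked 95 in shPABPN1, 269 in shSF3B4, 95 in shPCBP2 and 91 in shZNF384. The shPABPN1 call was lost without either shPABPN1 library (adjusted p = 0.0677 and 0.0734, limma). The shSF3B4 call was lost without either shSF3B4 library (0.0710 and 0.149), without shHDAC1 replicate 1 (0.0565), without shPABPN1 replicate 2 (0.0520) or without either shZNF384 library (0.0574 and 0.0549), all adjusted p from limma.

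YIPF4 stood at 0.15 in both shHDAC1 libraries, against a mean of 0.285 in the other 4 knockdowns, a difference of −0.14 (SE 0.017, adjusted p = 0.0219, limma). In shPABPN1 it rose to 0.30 and 0.35, against a mean of 0.241 in the other 4, a difference of 0.08 (SE 0.017, adjusted p = 0.0315, limma). The other groups lay between, with 0.29 and 0.30 in shPCBP2, 0.26 and 0.31 in shZNF384, and 0.23 and 0.24 in shSF3B4. The shHDAC1 values stood inside the range of shControl, and the ranges of shPABPN1, shPCBP2 and shZNF384 touched or overlapped. The shHDAC1 call was lost without shHDAC1 replicate 1 or 2 or shPCBP2 replicate 1 (adjusted p = 0.142, 0.130 and 0.0529, limma). The shPABPN1 call was lost when any of 7 libraries was left out (adjusted p = 0.0564 to 0.155, limma), and the difference was 0.06 without shPABPN1 replicate 1.

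KIN passed in no comparison, and its spread came mostly from shPABPN1, whose libraries stood apart at 0.56 and 0.29. It had 0.20 and 0.22 in shSF3B4, 0.11 and 0.15 in shHDAC1, 0.35 and 0.37 in shPCBP2 and 0.34 and 0.35 in shZNF384. The difference of shPABPN1 from the other 4 was 0.16 (95% interval 0.01 to 0.32, adjusted p = 0.139, limma), 0.30 without replicate 2 (adjusted p = 0.00263) and 0.03 without replicate 1. That of shHDAC1 was −0.20 (95% interval −0.36 to −0.05, adjusted p = 0.173, limma), and it passed without shPABPN1 replicate 1 or 2 (adjusted p = 0.0106 and 0.00437, limma). That of shSF3B4 was −0.10 (adjusted p = 0.447, limma), and it passed likewise (0.0490 and 0.00786). Both shHDAC1 libraries lay below all 3 shControl libraries, and 6 of the 10 libraries lay above them.

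MYORG and IQGAP2 had no call in the 10 tests. Their replicates lay far apart in some groups and close together in others, such as shZNF384. MYORG had 0.51 and 0.76 in shSF3B4, and 0.74 and 0.91 in shHDAC1. It had 0.82 and 0.97 in shPABPN1, 0.76 and 1 in shPCBP2 and 0.98 and 1 in shZNF384. The difference of shSF3B4 from the other 4 was −0.26 (95% interval −0.49 to −0.03, adjusted p = 0.194, limma), an interval that spans small and large differences alike. IQGAP2 had 0.71 and 0.90 in shSF3B4, 0.77 and 0.79 in shHDAC1, 0.62 and 0.88 in shPABPN1, 0.84 in both shPCBP2 libraries and 0.80 and 0.85 in shZNF384. Its 5 differences lay between −0.06 and 0.05, and the interval for shSF3B4 ran from −0.18 to 0.19. In 8 of these 10 libraries IQGAP2 stood below all 3 shControl libraries, whose values took part in choosing the gene.

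**Figure D4:**
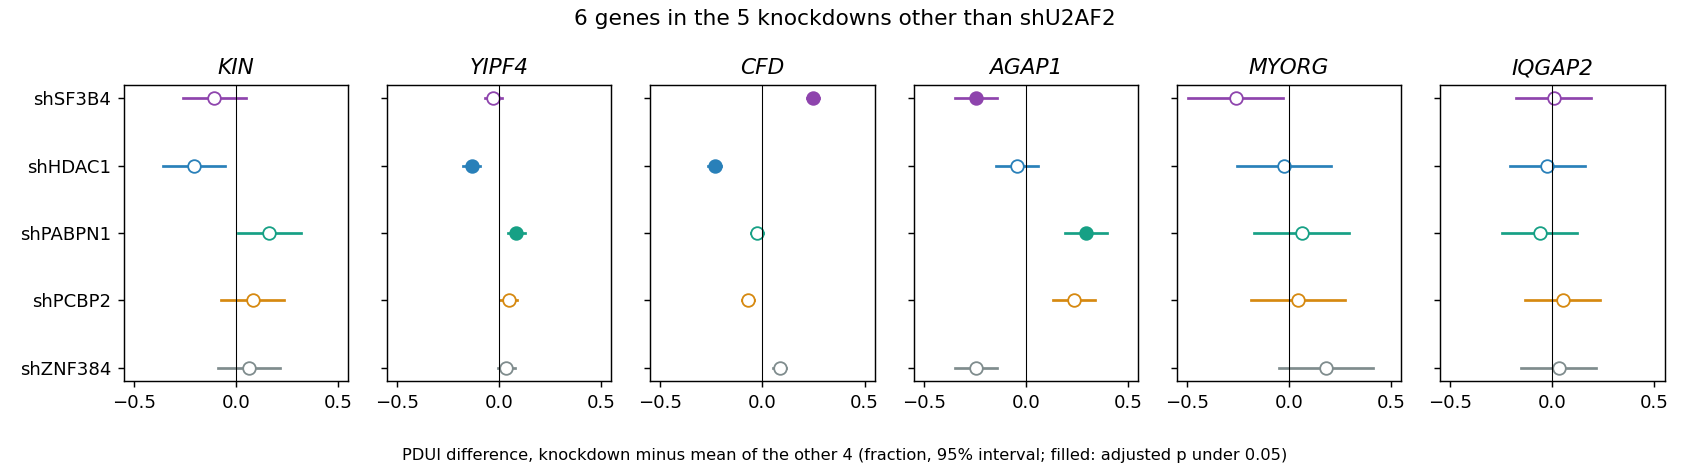
PDUI difference of each knockdown from the mean of the other 4, without shU2AF2 and shControl, for each of the 6 genes, with 95% intervals from limma and filled points where the adjusted p is under 0.05. CFD is higher in shSF3B4 by 0.25 and lower in shHDAC1 with a difference of −0.23, and the intervals of MYORG and IQGAP2 are the widest.

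By knockdown, 2 of the 6 genes were called in shSF3B4, 2 in shHDAC1 and 2 in shPABPN1. Over all tested genes the shares called were 7.27% in shSF3B4, with 4.09% higher and 3.18% lower, 2.83% in shHDAC1, with 0.32% higher and 2.51% lower, and 14% in shPABPN1, with 4.2% higher and 9.78% lower. With 6 genes picked from another contrast, these counts are too small to set against those shares. In shPCBP2 and shZNF384 limma called none of the 6, where it called 0.182% of all genes (0.13% higher and 0.0519% lower) and 0.311% (0.225% higher and 0.0865% lower), and 3 and 2 of the 6 had an unadjusted p under 0.05, as had 12.7% of all genes in shPCBP2 and 14.3% in shZNF384. The median difference over all genes was −0.03 in shPABPN1 and within 0.02 of 0 in the other 4.

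The values of KIN and YIPF4 were alike across the libraries. Both were picked for high shU2AF2 and low shControl values, so r over all 15 libraries, 0.967, reuses the values that chose them. Over the 10 libraries of the other 5 knockdowns Pearson r was 0.909, with the lowest group mean of both in shHDAC1 and the highest in shPABPN1. Over the same 10 libraries CFD had r = 0.351 with YIPF4 and 0.152 with KIN. Among AGAP1, MYORG and IQGAP2 the 3 values lay between −0.0348 and 0.289. Pairs of 1 gene from each side ran from −0.503 for CFD with AGAP1 to 0.526 for KIN with MYORG. YIPF4 had 0.417 with AGAP1, above its value with CFD, and −0.089 with IQGAP2. These are descriptions over libraries that share their preparation and, in pairs, their group.

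**Figure D5:**
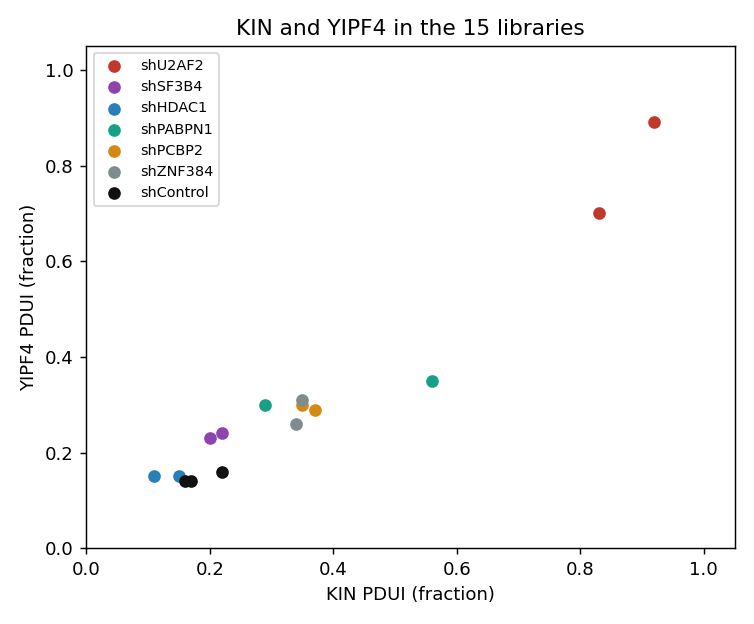
PDUI of YIPF4 against PDUI of KIN in the 15 libraries, coloured by group. The shU2AF2 libraries are alone at the upper right, at 0.83 and 0.92 for KIN, and the other 13 run from shControl and shHDAC1 at the lower left to shPABPN1.

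The genes with the highest Pearson r with each of the 6 over the 15 libraries were taken from 10931 others. These had a value everywhere, and the value was not the same in all libraries. This r reuses the shU2AF2 and shControl values that chose the 6, so other genes with large shU2AF2 shifts can rank high. The values without shU2AF2 still include shControl and cover only genes picked over the 15 libraries. Both are descriptions and no independent check. For KIN the genes with the highest r were MAPK8, the kinase JNK1, at r = 0.972, YIPF4, and AP001107.1 at 0.957. For YIPF4 they were LRPAP1, a chaperone of LDL receptor family proteins, at 0.972, KIN, and MAPK8 at 0.965. Pearson r does not reflect the size of a shift. Mean PDUI in shU2AF2 and in the other 13 libraries was 0.97 and 0.52 for MAPK8, 0.16 and 0.092 for AP001107.1, and 0.075 and 0.019 for LRPAP1. Without shU2AF2, over 13 libraries, KIN had r = 0.901 with MAPK8, 0.893 with YIPF4 and 0.824 with AP001107.1, and YIPF4 had 0.843 with LRPAP1 and 0.931 with MAPK8. For CFD they were ABCB8, a mitochondrial ABC transporter, at 0.968, PACS2 at 0.966 and CIAO1, of cytosolic iron-sulfur assembly, at 0.953, and over the 13 libraries they had 0.959, 0.911 and 0.920. For AGAP1 they were DDHD1, a phospholipase, at 0.890, TMED10 at 0.886 and ZDHHC14 at 0.872, and over the 13 libraries 0.870, 0.814 and 0.811. Their mean PDUI was 0.295, 0.30 and 0.065 in shU2AF2, against 0.672, 0.364 and 0.129 in the other 13 libraries. For MYORG they were RNF217 at 0.947, UVRAG at 0.868 and SEC62 at 0.858, and over the 13 libraries 0.909, 0.748 and 0.666. For IQGAP2 they were NUDT11 at 0.853, CEBPD at 0.852 and CSPG4 at 0.827, and over the 13 libraries 0.653, 0.759 and 0.636.

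Relatives of the 6 genes were examined in shU2AF2 against shControl, where 7.27% of all genes were called and the median difference was 0.01. In the YIP1 family 1 of 6 tested relatives of YIPF4 rose and none fell. That was YIPF6, with 0.83 and 0.88 in shU2AF2, against 0.36, 0.40 and 0.45 in shControl, a difference of 0.45 (SE 0.043, adjusted p = 0.000257, limma). In shPABPN1 YIPF6 had 0.62 and 0.73, and in the other 4 knockdowns 0.41 to 0.59. MYORG belongs to a glycoside hydrolase family with GAA, GANAB and GANC, and none of these passed (adjusted p = 0.905, 0.558 and 0.506, limma). Of the 11 acid glycosidases and relatives on the list, which include them, 1 rose. HEXA, the alpha subunit of beta-hexosaminidase and an enzyme of another family, had 0.35 and 0.43 in shU2AF2, against 0.07, 0.08 and 0.09 in shControl (difference 0.31, SE 0.022, adjusted p = 5.42e-05, limma). Both calls held with each library left out.

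Among 20 other Arf GTPase-activating proteins, 2 rose in shU2AF2, while AGAP1 itself stood lower there. AGFG1 had 0.32 and 0.37 in shU2AF2, against 0.21, 0.22 and 0.26 in shControl (adjusted p = 0.00512, limma), a call lost with libraries centred on their medians (adjusted p = 0.0517) or with these groups alone in the fit (adjusted p = 0.141). AGFG2 had 0.42 and 0.45, against 0.18, 0.20 and 0.27 in shControl (adjusted p = 0.0461, limma), and this call held under 1 of 11 alternatives. It was lost without any 1 of the 5 libraries (adjusted p = 0.0520 to 0.208) and in 5 other settings (adjusted p = 0.0540 to 0.129). The closest relatives of AGAP1 were AGAP2, at 0.25 in shU2AF2 and 0.16 in shControl, and AGAP3, at 0.57 in shU2AF2 and 0.523 in shControl, and neither passed. Limma called none of 7 IQGAP and Ras GTPase-activating proteins, 6 complement genes and 9 genes of 3' splice site recognition, of which 1, 0 and 1 had an unadjusted p under 0.05, as had 19.2% of all genes. IQGAP1 stood at 0.635 in shU2AF2 and 0.72 in shControl, and U2AF2 itself at 0.455 in shU2AF2 and 0.413 in shControl. The median differences of the 6 lists lay between −0.0033 and 0.043, beside 0.012 over all genes.

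Facts of the series limit these values. Missing values made up 1.37% to 4.49% of a library, and the read depth behind PDUI is unknown because the table gives no counts. The level of U2AF2 RNA was not measured by PDUI, so the strength of the knockdown was not checked, and markers of the cell line could not be either. The library names of shControl carry the suffix nuc, which those of the knockdowns lack, so a difference in preparation and the knockdown cannot be told apart in any comparison with shControl. Over the 11353 genes without gaps, shControl replicate 1 had the lowest mean PDUI, 0.522, beside 0.560 and 0.561 in the other shControl libraries. With single libraries left out, the differences of shU2AF2 from shControl lay between 0.53 and 0.76 for KIN, YIPF4 and CFD and between −0.59 and −0.36 for AGAP1, MYORG and IQGAP2, a range that the choice of the genes largely fixes.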

How the data were processed

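The authors deposited 1 table with a PDUI fraction per transcript and library, on genome build hg38 per the submitters' processing notes. No source used here names the aligner or the program that estimated PDUI. Per the labels' protocols, nuclear RNA and total RNA kits, oligo(dT) beads and a NEBNext Ultra kit were used. Libraries were grouped by their titles, and the shSF3B4 columns were assigned to the group alone because titles and library names number them differently. Whether replicates were separate cultures is not stated, so p-values measure only the spread between libraries.

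The deposited fractions were fitted without transformation in limma 3.58.1 (R 4.3.3), with 1 mean per group and eBayes with a trend. The comparison of shU2AF2 with shControl used all 15 libraries and genes with a value in both shU2AF2 and at least 2 shControl libraries. The tests of the other knockdowns used their 10 libraries and genes with a value in all 10. P-values are two-sided and adjusted within each comparison. On simulated data for shSF3B4 against the other 4, with 11561 genes and 200 changed by 0.3, limma recovered 138 of the changed genes (69.0%) and called 13 others. In this simulated set the 13 were a larger share of the calls than the adjusted p limit of 0.05 aims at. The changed genes were drawn from the middle of the PDUI range, with normal noise of the same spread in every group. The share recovered therefore does not describe genes outside that middle, such as YIPF4 and MYORG, with means of 0.258 and 0.845 in the 10 libraries.

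Identifiers were looked up in GENCODE release 29 without their version (97.3% of 13056, 56.5% of these with the same version), and of the 6 genes AGAP1 alone had the same version. Sequences come from that release's transcripts. Splice site sequences were not analysed here. The 6 genes and the lists of relatives were chosen with earlier results of these data known. Named genes are the 6, the 3 genes most correlated with each, the called relatives, up to 4 per list, and rank neighbours. IQGAP1, AGAP2, AGAP3, GAA, GANAB, GANC and U2AF2 were added as closest relatives, and ITIH2 and MED16 as genes beyond the annotated ends.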

Additional observations from a re-analysis of the deposited data

How the results depend on the processing

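The 6 differences of shU2AF2 from shControl are the ones that chose the genes, so their unchanged sides under 11 alternatives say nothing of stability. Of the 6 calls among the other knockdowns, those of CFD held under all 16 alternatives, and the others lost their call under 3 to 9 of them. On the log odds scale the AGAP1 calls were lost in shPABPN1 and shSF3B4 (adjusted p = 0.0635 and 0.239, limma), and with all 15 libraries in the fit the YIPF4 calls in shHDAC1 and shPABPN1 (0.0939 and 0.180). KIN in shPABPN1 passed with libraries centred (0.22, adjusted p = 0.0346), and CFD in shZNF384 on the log odds scale (adjusted p = 0.0437).

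Replicate numbers did not pair the libraries: the replicate differences of 15 pairs of groups, shSF3B4 left out, correlated at −0.012 to 0.047. The shSF3B4 columns have no assigned number, so the block gave both the midpoint of the replicate term, which is an assumption. With the replicate number as a block, 152 genes were called in shHDAC1 and 12 in shZNF384, and both YIPF4 calls were lost (adjusted p = 0.0524 and 0.0522, limma). In the fit with shControl this block leaves shControl replicate 3 without weight.

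Counts over all genes moved more. With libraries centred on their medians, limma called 157 genes in shHDAC1, where it called 327 as deposited, 2796 in shPABPN1 against 1617, 5 in shPCBP2 against 21, 3 in shZNF384 against 36 and 391 in shU2AF2 against 899. The split of higher and lower calls was 2525 and 271 in shPABPN1 when centred, against 486 and 1131 as deposited, 305 and 365 in shSF3B4 against 473 and 368, 0 and 3 in shZNF384 against 26 and 10, and 259 and 132 in shU2AF2 against 727 and 172. On the log odds scale there were 72 in shPCBP2 and 118 in shZNF384. Without a variance trend there were 10 and 17 in these, and with all 15 libraries in the fit 523 in shHDAC1 and 80 in shPCBP2. With shU2AF2 and shControl alone in the fit there were 327. The causes were not tested. Leaving out 1 library gave 87 to 444 calls in shHDAC1, 416 to 1286 in shPABPN1, 18 to 82 in shPCBP2, 448 to 838 in shSF3B4, 17 to 94 in shZNF384 and 573 to 788 in shU2AF2.

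Differences that never passed changed sign in some settings. With libraries centred, CFD in shPABPN1 stood at 0.0263, IQGAP2 in shSF3B4 and shZNF384 at −0.0025 each, and YIPF4 in shZNF384 at 0. Over single libraries left out, MYORG ranged from −0.11 to 0.06 in shHDAC1, from −0.01 to 0.14 in shPABPN1 and from −0.0763 to 0.164 in shPCBP2. IQGAP2 ranged from −0.0575 to 0.0075 in shHDAC1, from −0.1925 to 0.0675 in shPABPN1, from −0.0888 to 0.101 in shSF3B4 and from −0.00125 to 0.0638 in shZNF384.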

Other observations

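Long last exons were common among the genes called in shU2AF2 against shControl, beyond the 6 described. The 714 matched genes called higher had a median last exon of 2564 bases, the 171 called lower had 2968 bases, and all 12045 tested genes had 1381 bases. Last exons over 5000 bases made up 22.7% of the genes called higher, 19.3% of those called lower and 7.61% of all tested. These are descriptions with no test, and the part that coverage along a long exon plays in PDUI was not tested.

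In HEXA the other knockdowns had 0.23 and 0.27 in shPABPN1, 0.18 and 0.22 in shSF3B4, 0.13 in both shPCBP2 libraries, 0.12 and 0.13 in shZNF384 and 0.06 in both shHDAC1 libraries.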
